A study of Harpegnathos saltator with 12 samples.

Results

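Among the 14407 genes in the count tables, 7 marker genes represent the cells that surround the olfactory neurons of the ant antenna. They were chosen because the study used them to tell antennal cell types apart: repo (LOC105181500) for glia, grh (LOC105181616) for epithelium, and sv (LOC105187024), α4GT1/2 (LOC105190591), LOC105182650 and LOC105188530 for support cells. The study's mechanosensory marker LOC105188598, which it calls nompC, was placed beside them as a neuronal marker that does not belong to olfactory receptor neurons (ORNs). All 7 genes passed the count minimum and were tested.

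RNA was sequenced from the antennae of adult Harpegnathos saltator. Wild-type ants gave 2 libraries, ants heterozygous for a mutation of orco gave 3, and homozygous orco mutants gave 7. The gene orco encodes the co-receptor with which every tuning odorant receptor (Or) works, and the study asked what becomes of antennal cells and receptor genes without it. In what follows, controls means the 5 libraries with at least 1 intact copy of orco, the wild-type and heterozygous ones. The labels name the mutated gene but not the change in its sequence, and state neither an age nor how many animals a library stands for. Nothing states that libraries came from separate animals or colonies, so the p-values measure only the spread between these libraries.

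An insect sensillum is built from a few related cells. One or more neurons send their dendrites into a hair or pit, and support cells (sheath, shaft and socket cells) wrap the dendrites, make the cuticle of the hair and fill it with lymph that carries odorant-binding proteins. Glia ensheath the axons on their way to the brain, and an epithelium secretes the cuticle of the antenna. In Drosophila, repo encodes a homeodomain transcription factor needed for glial differentiation, grh (grainyhead) encodes a transcription factor of epithelial barrier and cuticle genes, and sv (shaven) encodes a Pax protein of the cells that form the bristle.

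Between 4.11 M and 23.2 M counts per library were assigned to genes. Levels are given as CPM, gene counts brought to a common library size with TMM scaling, and were not compared between genes because transcript lengths were not used here. A CPM is a share of the library. HsOrco itself lay between 1670 and 2769 CPM in the controls and between 13.6 and 157 CPM in the homozygotes, with no overlap. The summed level of 4 neuronal markers (nSyb, fne, Syt1 and onecut) lay between 1335 and 2214 CPM in the controls and between 556 and 1263 CPM in the homozygotes. Within this sum the markers were not alike. The range of nSyb was 706 to 983 CPM in the controls and 182 to 320 CPM in the homozygotes. For fne the groups overlapped, with 314 to 537 CPM in the controls and 206 to 569 CPM in the homozygotes. Mhc, a muscle marker, ran the other way from the sum, from 281 to 4819 CPM in the controls and from 3111 to 8559 CPM in the homozygotes. The wild-type libraries had 281 and 1053 CPM of Mhc, and the heterozygotes, from 603 to 4819 CPM, overlapped the homozygotes. In the study's single-nucleus data, by contrast, muscle cells were reduced in the mutant. The neuronal sum and Mhc both differed between homozygotes and pooled controls, and their part in the results on the 7 markers was not tested. In bulk samples, fewer cells of a type and less RNA per cell cannot be told apart.

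The wild-type libraries stood far apart from each other in grh and sv. For grh, wild-type replicate 1 had 5.30 CPM and wild-type replicate 2 had 62.6 CPM. For sv the same libraries had 1.91 CPM, from 27 counts, and 23.9 CPM. They also belong to different sequencing batches, since batch 1 holds replicate 2 of the wild type and replicate 1 of each mutant genotype, and batch 2 the other 9 libraries, so that within the wild type, library and batch cannot be told apart. Every test below held genotype and batch in one edgeR quasi-likelihood fit over all 12 libraries, with p-values adjusted by the Benjamini-Hochberg method over the 10740 genes tested.

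**Figure D1:**
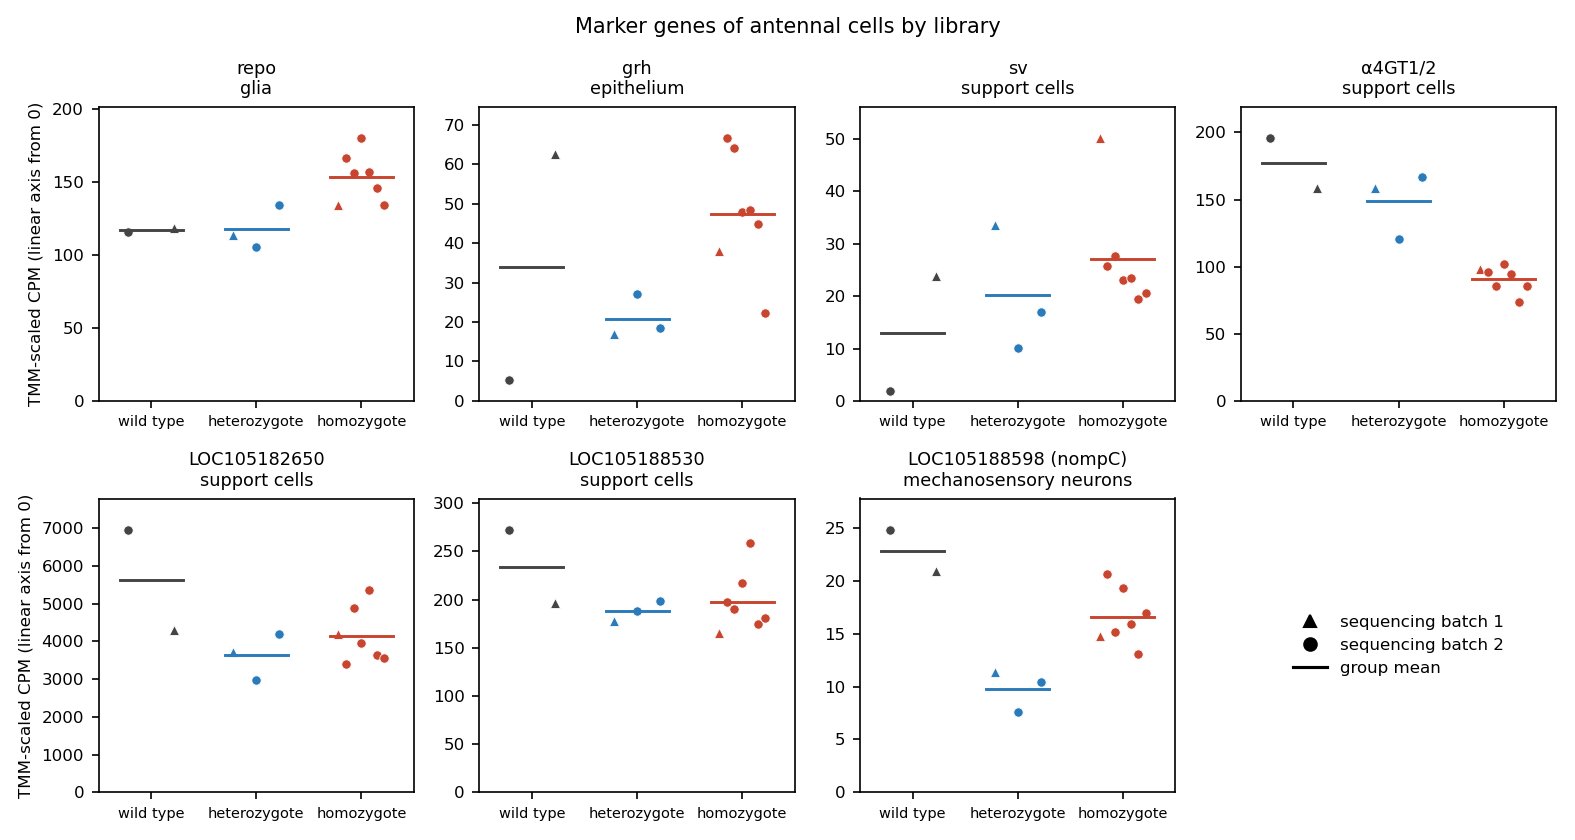
Level of each marker gene in each library, in TMM-scaled CPM on a linear axis from 0, by genotype. Each point is a library, triangles are sequencing batch 1, circles are batch 2, and the line is the group mean; α4GT1/2 is the gene whose 7 homozygote libraries all lie below the 5 controls.

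The first comparison set the homozygotes against the controls. The glial marker repo and the support cell marker sv rose, the support cell marker α4GT1/2 fell, and the other 4 genes were not called. The 3 called among 7 stand beside 43.9% of all genes tested, so the share called is near that of genes in general. Of all calls in this comparison 42.9% were higher in the homozygotes, and 28.3% when libraries were scaled by their totals, which moved the median of all genes from -0.040 to -0.17. The median log2 fold change of the 7 markers was 0.14. The support cell markers did not move as a group, since 1 rose, 1 fell and 2 were not called.

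α4GT1/2 takes its name from an α1,4-glycosyltransferase of Drosophila, an enzyme that extends the sugar chains of glycolipids, and in the study's single-nucleus data it marked both clusters of sv-positive support cells that were followed up by staining. Its level was 195 and 159 CPM in the wild-type libraries and 159, 121 and 167 CPM in the heterozygotes. In the homozygotes it ran from 74.0 through a median of 94.8 to 102 CPM, so every homozygote library lay below every control. The same held inside each batch: in batch 1 the homozygote had 98.4 CPM against 159 in both controls, and in batch 2 the homozygotes had at most 102 CPM against at least 121. The share of all genes that separate the groups in this way was not counted, here or for other genes below. For α4GT1/2 the fitted log2 fold change was -0.83 (SE 0.12, 95% interval -1.10 to -0.56, edgeR adjusted p = 2.82e-04).

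This drop was present against each control genotype. Against the heterozygotes the log2 fold change was -0.70 (SE 0.14, adjusted p = 0.00321), and against the wild type it was -0.95 (SE 0.16, adjusted p = 6.46e-04). Heterozygotes and wild type overlapped and were not called apart (-0.25, 95% interval -0.65 to 0.15, adjusted p = 0.357). The call against the wild type was lost when wild-type replicate 1 was left out (-0.69, adjusted p = 0.0584).

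The glial marker repo had the smallest scatter of the 7 genes, with a residual SD of 0.15 on the log2 scale. Its strand-specific counts summed to 8.24% more than its unstranded count, which leaves out reads shared with an overlapping gene. It read 116 and 118 CPM in the wild type, 114, 105 and 134 CPM in the heterozygotes, and ran from 134 through a median of 156 to 180 CPM in the homozygotes. All 7 homozygote libraries lay above the control mean, and the groups met only at their edges, where heterozygote replicate 3 and the lowest homozygotes shared a level. The log2 fold change against the controls was 0.35 (SE 0.11, 95% interval 0.11 to 0.59, edgeR adjusted p = 0.0217), a 1.28-fold difference.

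That call on repo was a narrow one. Without wild-type replicate 1 (0.29, adjusted p = 0.138) or heterozygote replicate 2 (0.29, adjusted p = 0.0566) it was not called, and with library totals in place of TMM scaling the difference was 0.22 (adjusted p = 0.292). Against the heterozygotes alone (0.36, adjusted p = 0.0567) and the wild type alone (0.35, adjusted p = 0.0751) repo was not called, although all homozygotes lay above both wild-type libraries. The value against the heterozygotes passed without heterozygote replicate 3 (0.46), homozygote replicate 7 (0.39) or either wild-type library (0.35 each), with DESeq2 size factors (0.40, adjusted p = 0.0356) and with the DESeq2 test (0.40, adjusted p = 0.00626), which also called repo against the wild type (0.37, adjusted p = 0.0269). The heterozygotes and the wild type differed by -0.0090 (95% interval -0.35 to 0.34).

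The support cell marker sv showed a stepped order within each batch. In batch 1 it read 23.9 CPM in the wild type, 33.5 in the heterozygote and 50.1 in the homozygote. In batch 2 it read 1.91 CPM in the wild type, 10.2 and 17.0 in the heterozygotes, and from 19.5 to 27.6 in the 6 homozygotes. The genotypes therefore did not overlap in batch 2, where the wild type is 1 library. Batch 1 holds 1 library per genotype, so overlap is not possible there. The genotypes overlapped when the batches were pooled, and all batch 1 libraries were high for their genotype. The share of all genes with such an order was not counted.

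With batch in the fit, sv was 2.92-fold higher in the homozygotes than in the controls (log2 fold change 1.54, SE 0.33, 95% interval 0.83 to 2.26, edgeR adjusted p = 0.00314). Batch 2 against batch 1 was -1.70 for sv (SE 0.34, adjusted p = 0.00426), and sv was the 1 marker of 7 called between batches, where 37.4% of all genes were called (52.5% of them higher in batch 2, or 70.5% with library totals). Without the batch term the genotype difference was 0.79 and was not called (adjusted p = 0.274). Against the wild type the difference was 2.26 (SE 0.48, adjusted p = 0.00339; 1.14 and not called without the batch term), and against the heterozygotes it was 0.83 (SE 0.34, adjusted p = 0.101), which did not pass but did so without homozygote replicate 1 (1.01) or either wild-type library (0.73 each), with the DESeq2 test (0.88, adjusted p = 0.0402) and in batch 2 alone (0.78, adjusted p = 0.0273). Heterozygote against wild type was 1.42 (SE 0.48, adjusted p = 0.0647), and it passed without wild-type replicate 2 (2.87) or homozygote replicate 1 (1.61), with the DESeq2 test (1.43, adjusted p = 0.0130) and in batch 2 alone (2.83, adjusted p = 0.00132).

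The epithelial marker grh had the widest scatter, with a residual SD of 0.96 on the log2 scale, above 96.9% of the genes tested. The heterozygotes had 17.0, 27.2 and 18.4 CPM, and the homozygotes ran from 22.2 through a median of 47.9 to 66.5 CPM. Of the 7 homozygotes 6 were above the control mean, and the highest control was wild-type replicate 2 at 62.6 CPM. The order differed between batches: in batch 1 the homozygote (38.1 CPM) lay below the wild type, and in batch 2 all homozygotes lay above the wild type at 5.30 CPM.

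The fitted difference in grh against the controls was 1.10 (SE 0.56, 95% interval -0.14 to 2.33, adjusted p = 0.133). It became 2.17 and was called when wild-type replicate 2 was left out (adjusted p = 4.59e-04), and 2.16 in batch 2 alone (adjusted p = 0.00128). DESeq2 gave nearly the main value, 1.10, with an adjusted p of 0.0450. Against the wild type it was 0.94 (SE 0.83, adjusted p = 0.374), turning to -0.75 without wild-type replicate 1 and to 3.21 without wild-type replicate 2, so the 2 wild-type libraries gave opposite directions. Against the heterozygotes grh was 1.26 higher (SE 0.57, adjusted p = 0.139), and it passed without either wild-type library (adjusted p = 0.0214 without replicate 1 and 0.0209 without replicate 2).

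The remaining support cell markers, LOC105182650 and LOC105188530, are known only by their locus numbers here. In the same nuclei the former marked the same support cell clusters as α4GT1/2, and the latter only part of them. LOC105182650 read 6949 and 4291 CPM in the wild type, 3729, 2974 and 4190 CPM in the heterozygotes, and ran from 3397.5 through 3949 to 5356 CPM in the homozygotes. LOC105188530 read 272 and 196 CPM in the wild type, 178, 189 and 198 CPM in the heterozygotes, and ran from 166 through 190.4 to 259 CPM in the homozygotes. Wild-type replicate 1 was the highest library for both genes, and the homozygotes overlapped both control genotypes.

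Neither was called against the controls. The difference was -0.16 for LOC105182650 (95% interval -0.60 to 0.29, adjusted p = 0.553) and -0.16 for LOC105188530 (95% interval -0.42 to 0.10, adjusted p = 0.302). Neither interval reaches the fitted value of α4GT1/2 (-0.83), although that of LOC105182650 overlaps the α4GT1/2 interval (-1.10 to -0.56). Without wild-type replicate 1 the value for LOC105182650 became 0.085. Against the wild type alone LOC105188530 was at -0.33 (adjusted p = 0.106), which passed without homozygote replicate 5 (-0.39) and with library totals (-0.49).

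**Figure D2:**
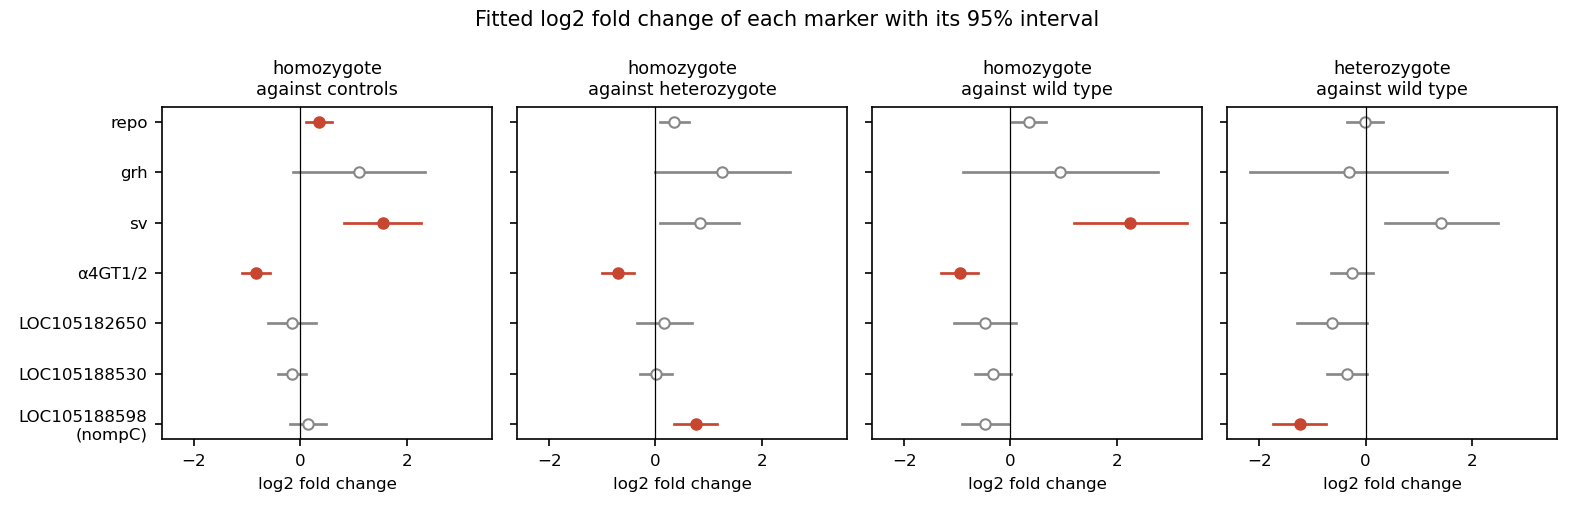
Fitted log2 fold change of each marker gene in the 4 genotype comparisons, with 95% intervals as horizontal lines; filled red points passed an adjusted p of 0.05 and open grey points did not. α4GT1/2 was called lower in all 3 homozygote comparisons, and LOC105188598 (nompC) was called in the 2 comparisons that turn on the heterozygotes.

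Ratios of counts within a library were used to ask whether the 4 support cell markers kept their proportions, since a ratio inside a library does not depend on how that library is scaled. Differences in mean log2 ratio between 7 homozygote and 5 control libraries were tested by a two-sided exact permutation test for the 6 pairs, with Benjamini-Hochberg adjustment over the 6. Proportions shifted for every pair with α4GT1/2 in it. LOC105182650 over LOC105188530 was 4.38 ± 0.22 (SD, n = 7) in the homozygotes and 4.38 ± 0.25 (SD, n = 5) in the controls (exact permutation p = 0.975).

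α4GT1/2 over LOC105188530 went from -0.37 ± 0.19 (SD, n = 5) in the controls to -1.11 ± 0.21 (SD, n = 7) in the homozygotes, a difference of -0.75 (exact permutation p = 0.00253, adjusted p = 0.00758), which is the smallest p these 792 arrangements can give. The groups did not overlap, with controls from -0.64 to -0.16 and homozygotes from -1.45 to -0.75. α4GT1/2 over LOC105182650 differed by -0.75 as well (exact permutation p = 0.00505, adjusted p = 0.0101), with an overlap at wild-type replicate 1, which had -5.15. In batch 2 alone, where 84 arrangements allow no p below 0.0238, those differences were -0.72 (exact permutation adjusted p = 0.0357) and -0.70 (exact permutation adjusted p = 0.0571).

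The ratio of sv to α4GT1/2 was 1.89 higher on the log2 scale in the homozygotes, again without overlap (exact permutation p = 0.00253, adjusted p = 0.00758). The ratios of sv to LOC105182650 and to LOC105188530 were both 1.14 higher and were not called (exact permutation adjusted p = 0.194 for both). In batch 2 alone they were 1.86 and 1.84 higher, with no overlap between groups (exact permutation adjusted p = 0.0357 for both). Without heterozygote replicate 1 the ratio to LOC105182650 was 1.55 higher and called (exact permutation adjusted p = 0.0273). Control ratios with sv were spread by wild-type replicate 1, whose sv over LOC105188530 was -7.13 while the other controls were no lower than -4.21.

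**Figure D3:**
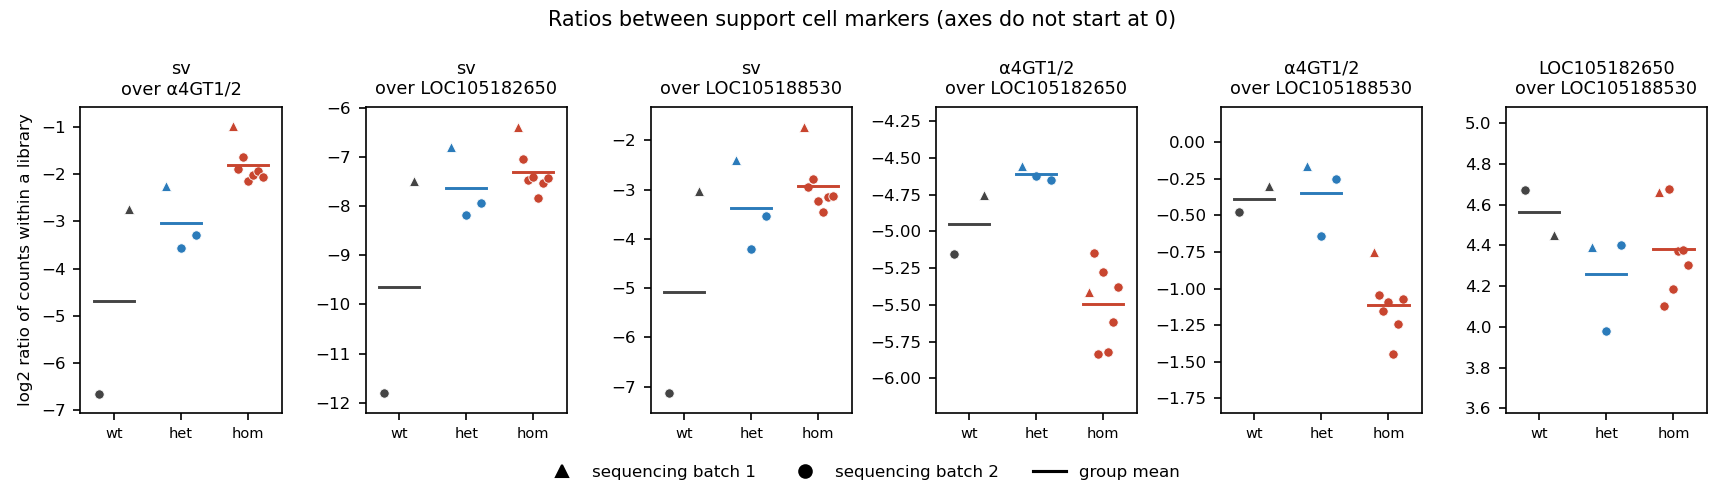
Log2 ratio of raw counts between pairs of support cell markers within each library, by genotype; points are libraries, triangles are batch 1, circles are batch 2, and lines are group means. Ratios with α4GT1/2 separate the homozygotes from most controls, and LOC105182650 over LOC105188530 stays near 4.38 in homozygotes and controls.

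LOC105188598, the study's mechanosensory marker, was lowest in the heterozygotes. It read 24.8 and 20.9 CPM in the wild type, 11.4, 7.63 and 10.4 CPM in the heterozygotes, and ran from 13.1 through 15.9 to 20.6 CPM in the homozygotes. Neither the heterozygotes nor the wild type overlapped the homozygotes, and both batches had the order heterozygote, homozygote, wild type from low to high. How many of all genes have such an order without overlap was not counted. Since the controls held both extremes, the comparison with the pooled controls showed little (0.14, 95% interval -0.20 to 0.48, adjusted p = 0.484).

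Between single genotypes the marker differed. Heterozygotes lay below the wild type (log2 fold change -1.23, SE 0.23, edgeR adjusted p = 0.00473). This was the 1 marker of 7 called there, where 17.8% of all genes were called. Against the heterozygotes the homozygotes were 1.69-fold higher (0.76, SE 0.18, adjusted p = 0.0126), and against the wild type they were lower by a difference that did not pass (-0.48, SE 0.20, adjusted p = 0.0733). The heterozygote calls were lost without wild-type replicate 1 (-1.07 against the wild type, adjusted p = 0.0883) and without heterozygote replicate 2 (0.56 for homozygote against heterozygote, adjusted p = 0.0893), and the value against the wild type was called without heterozygote replicate 1 (-0.54), heterozygote replicate 2 (-0.51) or homozygote replicate 2 (-0.53).

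RefSeq gives the symbol nompC to a neighbouring gene model. NompC is a TRP channel that opens under mechanical force in Drosophila touch and hearing neurons, and its protein carries a long chain of ankyrin repeats. In the RefSeq annotation of the same assembly, LOC105188598 spans 2419 bases, LOC112589396 follows it with 4385 bases, and LOC105188586, named nompC, follows that with 15973 bases. LOC105188598 and LOC112589396 overlap at their ends, although the study counted on its own annotation, whose gene models may differ. Summed over the strand-specific columns, the counts of LOC105188598 were 4.01% above its unstranded count, which leaves out reads shared with another gene.

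All 3 gene models were called higher in the homozygotes than in the heterozygotes, with 1.17 for LOC105188586 (adjusted p = 0.0179) and 1.07 for LOC112589396 (adjusted p = 0.00864), and only LOC105188598 was called between heterozygotes and wild type. LOC105188586 read 18.2 and 86.1 CPM in the wild type, 79.8, 24.2 and 54.9 CPM in the heterozygotes, and ran from 80.0 through 89.6 to 135 CPM in the homozygotes. It was 1.39 higher on the log2 scale in the homozygotes than in the controls (SE 0.28, adjusted p = 0.00242), and LOC112589396 was 1.02 higher (SE 0.21, adjusted p = 0.00262). Heterozygote against wild type was 0.43 for LOC105188586 and -0.10 for LOC112589396, neither called. Without the batch term LOC105188586 was 0.90 higher (adjusted p = 0.0898) and LOC112589396 0.73 higher (adjusted p = 0.116), neither called, and both neighbours fell from batch 1 to batch 2 (-1.14 and -0.99). A test that the 3 gene models differ from each other was not run.

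**Figure D4:**
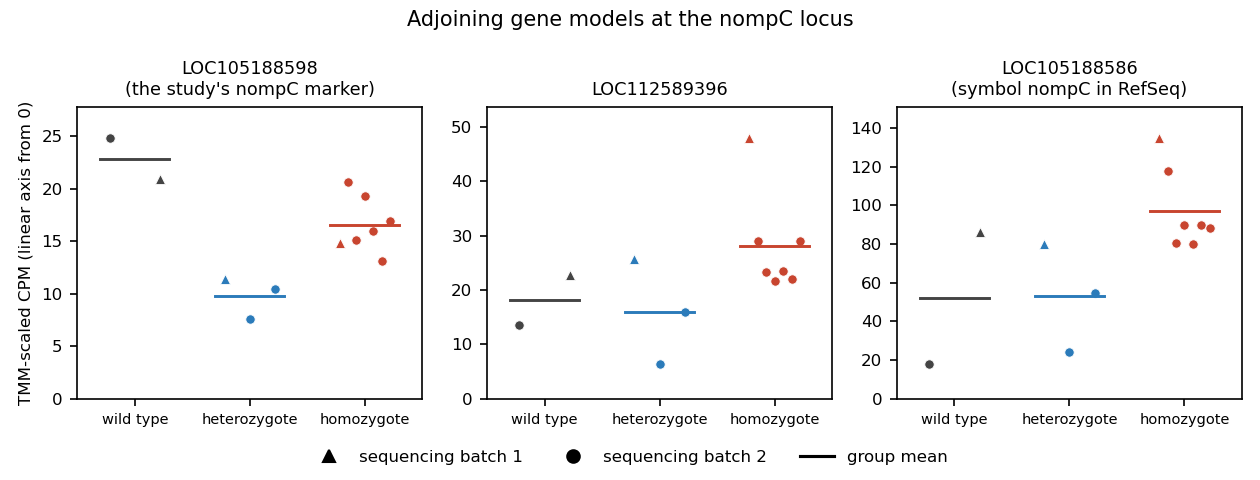
TMM-scaled CPM, on linear axes from 0, of the 3 adjoining gene models at the nompC locus, by genotype; points are libraries, triangles are batch 1, circles are batch 2, and lines are group means. LOC105188598 is lowest in the 3 heterozygotes, and LOC105188586 is highest in homozygote replicate 1 at 135 CPM.

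Across the single-genotype comparisons, 2 of the 7 markers were called between homozygotes and heterozygotes, where 23.0% of all genes were called, namely α4GT1/2 and LOC105188598. Of all calls there 29.7% were higher in the homozygotes, or 11.6% with library totals, under which LOC105188598 (0.67) was not called. Against the wild type, 2 of 7 were called, sv and α4GT1/2, where 44.8% of all genes were called, 42.5% of them higher or 28.9% with library totals. The median log2 fold change of the 7 markers was 0.36 against the heterozygotes (all genes -0.023), -0.33 against the wild type (all genes -0.062) and -0.32 for heterozygote against wild type (all genes 0.032). Homozygotes were thus the higher group for 6 of the 7 markers against the heterozygotes and for 3 of the 7 against the wild type, as fitted values that mostly did not pass. In the first of these comparisons, leaving out either wild-type library, which takes part only through the shared spread and batch terms, brought the markers called to 5 with repo, grh and sv. The calls over all genes rose there too, from 2468 to 3078 without replicate 1 and to 3131 without replicate 2.

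Beyond the 7 markers, lists of genes known from the same cell types in Drosophila were read through their RefSeq symbols. Over all genes tested, 18.8% rose and 25.0% fell against the controls, and 6.82% rose and 16.2% fell against the heterozygotes alone. In the heterozygotes against the wild type, 9.71% rose and 8.14% fell. Calls in that comparison went from 1917 to 452 without wild-type replicate 1, and the lists were not recounted there. Against the controls 4712 genes were called. Without wild-type replicate 1 this was 2966 (40.9% of them higher), and without wild-type replicate 2 it was 6043 (46.7% higher). For the epithelium, 7 of 8 tested genes rose in the homozygotes against the controls, with a median log2 fold change of 1.64. They included ple and Ddc, the enzymes that make dopa and dopamine for cuticle hardening, dpy, a giant matrix protein that ties epithelium to cuticle, kkv, a chitin synthase, Tg, a transglutaminase, and shg, the epithelial cadherin. The log2 fold changes were 2.14 for dpy (LOC105184603, SE 0.28, adjusted p = 1.24e-04), 1.94 for ple (LOC105182098, SE 0.25, adjusted p = 1.04e-04), 1.72 for Tg (LOC105187925, SE 0.23, adjusted p = 1.28e-04) and 1.55 for shg (LOC105189171, SE 0.34, adjusted p = 0.00369). Against the heterozygotes alone 2 of the 8 rose. Heterozygote against wild type, 3 of the 8 rose. The groups overlapped in ple, which ran from 135 to 5597 CPM in the controls and from 2720 to 7252 CPM in the homozygotes.

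Septate junctions seal epithelia and the glial sheath of nerves, and 12 of 15 such genes rose (median log2 fold change 0.65) while 1, dlg1, fell (-0.68, adjusted p = 0.00118). Examples were Tsf2 (0.68, SE 0.10, adjusted p = 2.82e-04), Fas3 (0.95, SE 0.17), sinu (0.91, SE 0.16) and bark (0.93, SE 0.17). Without wild-type replicate 1, 6 of the 15 rose, and with library totals 6 rose. Against the heterozygotes 1 rose and 2 fell. In the heterozygotes against the wild type, 7 of the 15 were higher and 0 lower, with a median log2 fold change of 0.84. Of all genes, 9.71% were higher and 8.14% lower there.

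Genes on the glial list went both ways. The list was read by Drosophila symbol, and whether each gene is glial in the ant antenna was not examined. Of 8 tested, 4 rose and 2 fell against the controls, and against the heterozygotes alone 1 rose (pnt, 0.35) and 1 fell (Eaat2, -2.98). The risers included pnt, an ETS transcription factor (0.53, SE 0.09, adjusted p = 0.00107), and loco, a regulator of G-protein signaling (0.52, SE 0.13, adjusted p = 0.00728). The fallers were Eaat2, an amino acid transporter, from 1317 ± 349 CPM (SD, n = 5) in the controls to 164 ± 140.3 CPM (SD, n = 7) in the homozygotes (log2 fold change -2.92, SE 0.31, adjusted p = 2.41e-05), and moody, a receptor of the blood-brain barrier glia (-0.92, SE 0.21, adjusted p = 0.00462). Without wild-type replicate 1, loco (0.30) and moody (-0.60) were not called and the counts became 1 higher and 1 lower, and without heterozygote replicate 2 there were 2 higher.

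Support cell genes by symbol went both ways against the controls, with 3 higher and 4 lower of the 11 tested. Against the heterozygotes alone edgeR called 0 of the 11 (unadjusted p under 0.05 for 2, DESeq2 called 2), with a median log2 fold change of 0.072, while 1 was higher and 4 lower in the heterozygotes against the wild type. Lower than in the controls were the odorant-binding proteins Obp1 (-1.60, SE 0.27, adjusted p = 7.20e-04), Obp6 (-0.96, SE 0.16, adjusted p = 7.30e-04), Obp5 (-0.94, SE 0.19, adjusted p = 0.00209) and Obp11. The wild type was the high group in these genes: Obp5 had means of 6176 CPM in the wild type, 1592 in the heterozygotes and 1844 in the homozygotes, and Obp6 had 2824, 967 and 946. The riser with the smallest adjusted p was nompA, a protein of the cap that ties the dendrite to the cuticle (2.20, SE 0.25, adjusted p = 3.81e-05). It went from between 5.65 and 105 CPM in the controls to between 93.7 and 139 CPM in the homozygotes, and was not called against the heterozygotes alone (0.63, adjusted p = 0.0922). Without wild-type replicate 1 the list held 1 higher and 3 lower, and 12 more genes, mostly of the Osiris family, were under the count minimum.

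On the mechanosensory list, 4 of 8 tested genes rose and 3 fell, both against the controls and against the heterozygotes alone. Whether other antennal neurons, ORNs among them, express these genes was not examined. The risers iav (1.43, SE 0.20, adjusted p = 2.37e-04) and tilB (1.45, SE 0.26, adjusted p = 0.00116) act in the ciliated neurons of the fly's hearing organ, as a TRP channel and a ciliary protein. The fallers stum (-1.92, SE 0.15, adjusted p = 1.72e-06) and nompB (-0.69, SE 0.08, adjusted p = 4.48e-05) act in mechanosensing dendrites and in transport along cilia. The stum level went from between 36.9 and 136 CPM in the controls to between 16.2 and 23.7 CPM in the homozygotes, without overlap.

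Genes that lie beside Or genes, and that the study saw in the same non-neuronal cells, formed another set of lists. Of 10 in support cells, 4 rose and 1 fell, among them LOC105187308 (0.90, SE 0.16, adjusted p = 9.69e-04) and LOC105182711 (-0.91, SE 0.24, adjusted p = 0.0109). Of 4 in epithelium, 2 rose, and all 4 did without wild-type replicate 2. The lists share genes: LOC105187308 is on this list too and is counted again, and drpr is also on the glial list above. Of 2 in glia 0 were called by edgeR or by DESeq2, with an unadjusted p under 0.05 for 0 of them, and 1 was called without wild-type replicate 2. Without that library 6043 of all genes were called, in place of 4712. Since the genes of these lists were chosen with the mutant in view, they are no independent evidence of direction.

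Or genes at loci that the study lists as expressed in support cells, glia, epithelium or mechanosensory neurons mostly fell. The study describes these patterns by locus, so a listed gene need not itself have been seen in those cells. In support cells 55 of 56 tested fell, with a median log2 fold change of -5.24. In epithelium 5 of 5 fell, in mechanosensory neurons 7 of 7, and in glia 4 of 7. Most of the support cell list is a run of consecutively numbered genes, HsOr306 to HsOr351, which dominates its count and median. The study reports that expression of most Or genes was lost in homozygotes. The share that fell among all Or genes was not counted here, so these counts show nothing particular to the lists. The exception in support cells was HsOr370, which the study stained together with α4GT1/2. It read from 18.3 to 34.2 CPM in the controls and from 18.3 to 35.3 CPM in the homozygotes (0.12, 95% interval -0.16 to 0.41, adjusted p = 0.458), and the sign turned with library totals (-0.0060) or without wild-type replicate 1 (-0.032).

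Among glial Or genes the 3 not called were HsOr202 (-0.51, adjusted p = 0.246), HsOr201 (-0.83, adjusted p = 0.111) and HsOr189 (-0.76, adjusted p = 0.298). HsOr202, which the study stained together with repo, ran from 5.96 to 16.9 CPM in the controls and from 3.97 to 13.2 CPM in the homozygotes. These 4 Or genes were named after their values were seen. Other Or genes of the glial list had large changes, such as HsOr199 (-4.93, SE 0.29, adjusted p = 3.13e-07).

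**Figure D5:**
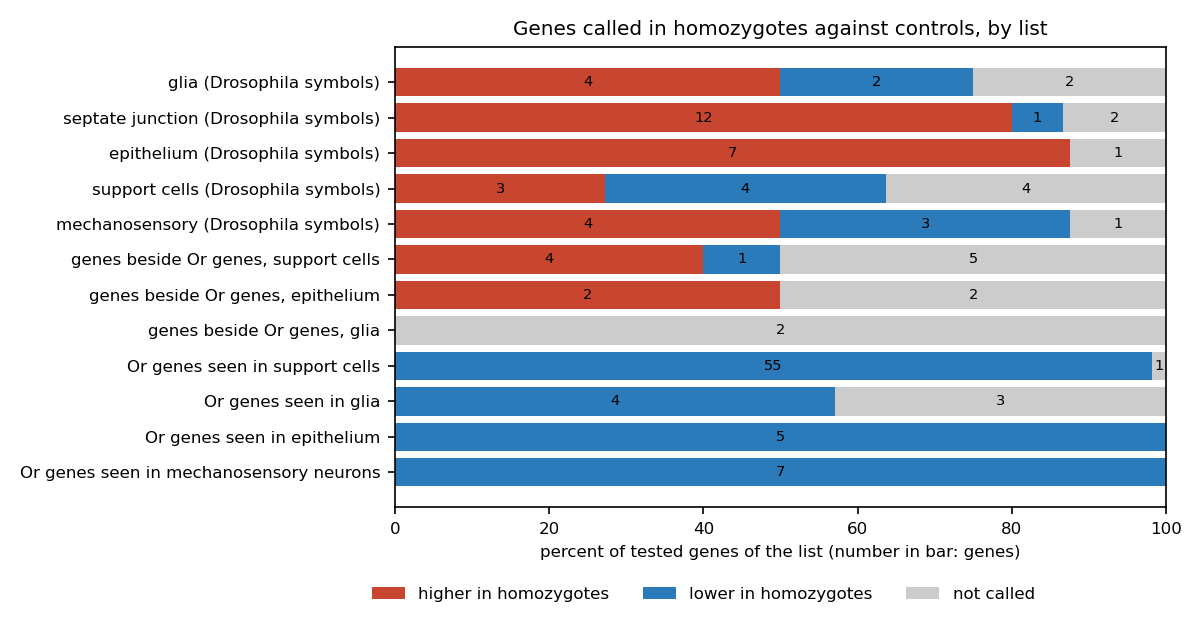
Share of the tested genes of each list that were called higher (red), called lower (blue) or not called (grey) in homozygotes against controls, in percent, with gene numbers in the bars. Epithelial and septate junction genes were mostly higher (7 of 8 and 12 of 15). Or genes at loci listed for support cells (labelled as seen there) were nearly all lower (55 of 56).

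The genes whose levels followed each marker most closely across the 12 libraries, with genotype and batch removed, were sought among the other 10739 tested. For sv they were LOC105187656 (Pearson r = 0.99), Poxn (0.99) and Sbf (0.99). Poxn encodes another Pax protein and, in Drosophila, gives sensory organs their chemosensory identity. For grh they were Best2, LOC105181690 and Oct-TyrR (0.99 for each). For repo the closest was LOC112588645 (0.97), for α4GT1/2 LOC105186555 (0.92), for LOC105182650 LOC105191522 (0.94), for LOC105188530 LOC105185764 (0.94), and for LOC105188598 SelR (0.93), one of the support cell genes beside an Or array. The 12 points share libraries and scaling, and the values are a description over few points. Over the 10 libraries without the wild type the r values for the 3 genes closest to sv and to grh lay between 0.96 and 0.98.

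Between markers the closest residual pair was grh and sv (r = 0.83 over 12 libraries), which became 0.58 without the wild-type libraries. α4GT1/2 and LOC105188598 stood at 0.81 with all libraries and also without the wild type (0.81). Among the 7 homozygotes alone, 21 pairs of markers were compared, and no pair passed after adjustment. The pair with the smallest unadjusted p was repo and LOC105188530 (Spearman's rho = 0.86, exact permutation p = 0.0238, adjusted p = 0.50; Pearson's r = 0.63, exact permutation p = 0.127, adjusted p = 0.751), with r = 0.50 in the 6 batch 2 libraries and 0.37 without the 2 libraries farthest from the median of repo.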

How the data were processed

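RNA from antennae of adult ants was sequenced in 12 libraries. The authors deposited raw counts per gene, made with STAR 2.6.1d on the newer H. saltator assembly and an annotation with curated receptor names. A read counts only if it has 1 mapping position and touches 1 gene. The unstranded column was used, since the first strand held between 50.0% and 50.6% of stranded counts, so overlapping genes cannot be separated. The lines that name no gene, between 20.7% and 29.7% of all counts, stayed out of library sizes. A second deposited table of normalized values (DESeq2 1.34.0 per the submitters' processing notes) was not used. Trimming and the change in orco are not given in the sources used here.

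Genes were kept at a mean count of 10 or more (10740 of 14407) and tested in R 4.3.3 by the quasi-likelihood method of edgeR 4.0.16 with limma 3.58.1, with TMM scaling, terms for genotype and batch, and Benjamini-Hochberg adjustment. Calls needed an adjusted p under 0.05. Standard errors are approximate, the size of the log2 fold change over the square root of F, and the 95% intervals use the test's degrees of freedom. In the fit, controls weigh both control genotypes equally. The fit was first tested on simulated data. Ratios used 0.5 added to each count, and exact permutation tests used scipy 1.17.1 and numpy 2.4.6 in Python 3.11.15. Residual likeness used log2 CPM with a prior count of 2.

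The 7 markers and all lists were chosen with earlier results of these data known. Text names all 7 markers, up to 4 called genes per list by smallest adjusted p with exceptions (dlg1, Ddc, kkv, Obp11 and the uncalled Or genes, chosen after their values were seen), and up to 3 most alike genes per marker. RefSeq's table of the same assembly matched 13545 gene IDs, 4090 with a symbol; Drosophila lists were matched by symbol because that table holds no product names. Pairs of libraries of one genotype differed far beyond counting noise (chi-square per gene at least 19.8), so none was treated as a duplicate. Alternatives tried were DESeq2 size factors, library totals, no count minimum, DESeq2 1.42.0 as the test, no batch term, batch 2 alone, a replicate block, each library left out and, for ratios, 5 added to each count.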

Additional observations from a re-analysis of the deposited data

Results flagged for a closer look

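Of 7 groups of 4 to 10 libraries (the homozygotes for each of the 7 markers), 1 held a library far from the others: sv in homozygote replicate 1, at 50.1 CPM, with the other 6 homozygotes between 19.5 and 27.6 CPM. Its gap to the next library was 0.737 of the whole range. Chance flags about 1 in 20 groups. This library is also the only homozygote of sequencing batch 1, and sv was called between batches. Homozygote replicate 1 had the lowest number of gene-assigned counts among the homozygotes, 5.65 M, and the lowest TMM factor of all libraries, 0.813. Their part in its sv level was not tested.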

How the results depend on the processing

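With no batch term 3037, 1486, 2966 and 721 genes were called for homozygote against controls, heterozygote and wild type and for heterozygote against wild type, and 1 marker for homozygote against wild type. In batch 2 alone 3592 genes and 3 markers were called for heterozygote against wild type. For homozygote against heterozygote 1 marker was called with library totals and 4 with DESeq2, which called 2 for heterozygote against wild type. Library totals turned LOC105188530 to -0.087 against the heterozygotes and HsOr370 to -0.0060 against the controls. Heterozygote against wild type turned to 0.011 for repo with no batch term, and in batch 2 alone to 0.050 for repo and 2.10 for grh. The ratio LOC105182650 over LOC105188530 turned to -0.015 there. The causes were not tested.

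The replicate numbers were not taken to pair the libraries. Of 7 same-numbered pairs, with correlations of deviations from the group means from -0.56 to 0.53, 2 were over 0.1. Batch was not removed from these deviations, and every same-numbered pair with a wild-type library crossed batches. The values therefore cannot show whether the numbers pair the libraries. Replicates 4 to 7 are all homozygotes. A replicate block therefore fits each of those libraries with its own term, and they add nothing to the genotype differences. Such a block gave 2747, 1212, 3079 and 866 genes in the order above, with 1 marker for homozygote against heterozygote and 2 between batches. Under it LOC105188530 was -0.029 against the heterozygotes and grh 0.14 for heterozygote against wild type. The block ended the calls of repo against the controls (0.34, adjusted p = 0.130), of α4GT1/2 (-0.66, adjusted p = 0.0726) and LOC105188598 (0.80, adjusted p = 0.117) against the heterozygotes, and of LOC105188598 for heterozygote against wild type (-1.20, adjusted p = 0.0717). It added calls of higher grh against controls (adjusted p = 0.00480), heterozygotes (adjusted p = 0.0109) and wild type (adjusted p = 0.00871), and of sv for heterozygote against wild type (1.51).

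With 1 library left out, genes called ran from 2966 to 6043 (homozygote against controls), 1479 to 3131 (against heterozygote), 1962 to 5978 (against wild type) and 452 to 3908 (heterozygote against wild type), and markers called from 2 to 4, 1 to 5, 1 to 3 and 0 to 3. The extremes for homozygote against controls came without wild-type replicate 1 and replicate 2. Signs turned for LOC105182650 against the controls (-0.28 to 0.085) and heterozygotes (-0.0079 to 0.27), LOC105188530 against the heterozygotes (-0.045 to 0.081), grh against the wild type (-0.75 to 3.21), repo (-0.12 to 0.079) and grh (-1.86 to 2.09) for heterozygote against wild type, HsOr370 against the controls (-0.032 to 0.20) and LOC105182650 over LOC105188530 (-0.097 to 0.077).

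Over all alternatives together, 2058 single values kept direction and side of the threshold (for counts, stayed within 1.5 times), 28 no longer passed, 36 newly passed, 23 changed sign and 27 counts moved further. The shallowest library, with 4.11 M counts, is 1 of only 2 wild-type libraries, which limits every comparison with the wild type.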
